A study of Homo sapiens with 12 samples.

Results

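The response of HepG2C3A cells to acetaminophen was compared between Petri dishes and a culture microsystem, using all 12 of the 12 arrays of the series. The quantity described is the difference of treatment effects, which is the microsystem effect (treated minus control) minus the Petri effect (treated minus control), with 3 arrays in each of 4 groups. A positive difference means a higher treated-to-control ratio in the microsystem, and a negative difference a higher ratio in Petri dishes. It was computed for 13199 genes, each with 1 probe set, on the log2 scale of the deposited values. HepG2C3A is an established human hepatoma line that retains many functions of hepatocytes, and all 4 groups are this 1 line. Petri control and microsystem control cells were grown for 96 h without drug. Petri treated and microsystem treated cells were grown for the same 96 h, of which 72 h with acetaminophen. The drug's dose, and what the microsystem consists of, are not stated in the labels. The cells were detached with trypsin before RNA extraction and the samples were frozen before hybridisation.

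Acetaminophen is an analgesic that the liver clears mainly by conjugation to glucuronate and sulfate. A smaller part is oxidised by cytochrome P450 enzymes, among them CYP2E1, CYP1A2 and CYP3A4, to a reactive quinone imine that is trapped by glutathione. When glutathione runs low the quinone imine binds proteins, and cells answer with oxidative stress genes such as HMOX1, with amino acid and glutathione supply genes driven by ATF4 and NRF2, and with cell cycle and p53 genes. The comparison of cultures asks which of these answers depend on how the cells are grown.

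The array medians lay between 5.556 and 5.629 on the log2 scale. Within groups, pairs of arrays had correlations of 0.991 to 0.995 over probe sets. The third principal component, with 6.77% of the variance, separated the microsystem arrays numbered 3 (scores of -17.2 and -13.9) from the others. Results are therefore given with and without these 2 arrays where they decide a call. All 9 hepatocyte markers with a probe set lay above the 40th percentile of their arrays in every group. None of 8 endothelial markers did in Petri dishes, and in the microsystem LYVE1 alone did. Of 8 leukocyte markers, 4 or 5 did in each group, led by LYZ and CD68, while the pan-leukocyte marker PTPRC had mean levels between 2.56 and 2.64. Of 6 cholangiocyte markers 5 lay above that percentile in every group, as did 5 of 9 stellate or fibroblast markers. Lying above it therefore does not by itself identify a cell type. The labels do not say whether replicates are separate cultures. The p-values therefore rest on the spread among these samples alone, and that spread may be technical. The description of Petri treated replicate 3 carries a mark that the labels do not explain.

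Acetaminophen changed 1367 of 13199 genes in Petri dishes (10.4%), of which 1106 rose (8.38%) and 261 fell (1.98%) (limma, adjusted p under 0.05). In the microsystem it changed 1196 genes (9.06%), of which 843 rose (6.39%) and 353 fell (2.67%). With replicate numbers as a block within each culture, 2180 genes passed in Petri dishes and 2109 in the microsystem. Leaving out Petri control 2 gave 771 genes in Petri dishes, Petri control 3 gave 844, Petri treated 2 gave 701 and Petri treated 3 gave 730. Leaving out microsystem control 2 gave 605 genes in the microsystem and microsystem treated 2 gave 460. It was 677 without both microsystem arrays numbered 3.

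The difference itself passed for 4 genes (0.0303% of those tested), and 3 of them rose in Petri dishes. CEL, LAPTM5 and HSPA4L had a lower effect in the microsystem (0.0227% of genes), and AGTR1 a higher one (0.00758%). CEL rose in both cultures and more in Petri dishes, and the other 3 genes passed the treatment test in Petri dishes alone. No gene passed the difference with a larger or lone effect in the microsystem, or with effects past the threshold in opposite directions. At an unadjusted p under 0.05, 970 genes had a difference (7.35%), 372 higher in the microsystem (2.82%) and 598 lower (4.53%). In RNA of whole cultures, fewer cells with a transcript and less transcript per cell cannot be told apart.

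CEL encodes carboxyl ester lipase, an enzyme best known from pancreatic juice that cleaves cholesteryl esters and other lipid esters. In Petri controls its log2 level was 5.87, 5.76 and 5.95, and in Petri treated cells 8.18, 8.27 and 8.38. In microsystem controls it was 5.82, 6.14 and 5.81, and in microsystem treated cells 6.71, 6.95 and 6.40. The control groups overlapped, treated cells lay above controls in both cultures without overlap, and every Petri treated array lay above every microsystem treated array. CEL rose 5.33-fold in Petri dishes (log2 effect 2.41 ± 0.13 SE, adjusted p = 4.05e-07) and 1.70-fold in the microsystem (0.77 ± 0.13, adjusted p = 0.00384). The log2 difference was -1.65 ± 0.19 (SE, n = 3 per group, 95% interval -2.05 to -1.25, limma adjusted p = 0.00762), so the fold in Petri dishes was 3.13 times that in the microsystem. The call held when any 1 of the 12 arrays was left out. The difference was -1.56 when both microsystem arrays numbered 3 were (adjusted p = 0.00573). CELP, a pseudogene of related sequence, had effects of 0.44 in Petri dishes and -0.14 in the microsystem, and its difference of -0.59 did not pass (adjusted p = 0.199). Whether the probe sets share signal was not tested, so the exact size for CEL is uncertain.

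LAPTM5 encodes a lysosomal membrane protein best known from blood cells. Its log2 level was 4.52, 4.66 and 4.68 in Petri controls and 5.89, 5.75 and 6.01 in Petri treated cells. Microsystem controls had 4.89, 4.67 and 4.95 and microsystem treated cells 4.65, 4.70 and 5.17. The 3 Petri treated arrays stood above all 9 others, and the microsystem groups overlapped. LAPTM5 rose 2.40-fold in Petri dishes (1.26 ± 0.13, adjusted p = 9.86e-05), and its effect in the microsystem was 0.01 ± 0.13 (adjusted p = 0.984). The difference was -1.25 ± 0.18 (SE, n = 3 per group, 95% interval -1.65 to -0.86, limma adjusted p = 0.0369). The Petri controls lay below the 40th percentile of their arrays and the microsystem arrays around it (4.80 to 4.90), so the sizes are uncertain. Besides the Petri treated arrays, microsystem control 1, microsystem control 3 and microsystem treated 3 lay above it. Over the 8 leukocyte markers the array mean was 6.07 to 6.20 in Petri controls and 6.01 to 6.09 in Petri treated cells. In the same order, PTPRC was 2.62 and 2.58, LYZ 12.172 and 12.095, and CD68 9.21 and 9.41. Whether these markers bear on LAPTM5 was not tested. The call held without microsystem control 1, microsystem control 3 or microsystem treated 3. It was lost without any 1 of the other 9 arrays, with adjusted p between 0.084 and 0.167. Without both microsystem arrays numbered 3 it was -1.36 (adjusted p = 0.00573).

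HSPA4L encodes a chaperone of the HSP110 family, which exchanges nucleotides on HSP70. Its log2 level was 7.86, 7.66 and 7.81 in Petri controls and 8.70, 8.74 and 8.75 in Petri treated cells. The microsystem levels were 8.35, 8.45 and 8.34 in controls and 8.46, 8.51 and 8.66 in treated cells. Petri controls were the low group, below the other 9 arrays, and the 3 other groups lay between 8.34 and 8.75. In the microsystem the treated arrays lay just above the controls without overlap, and 27.6% of genes had no overlap there in either direction. HSPA4L rose 1.93-fold in Petri dishes (0.95 ± 0.08, adjusted p = 2.16e-05), and its effect in the microsystem was 0.16 ± 0.08 (adjusted p = 0.232). The difference was -0.79 ± 0.11 (SE, n = 3 per group, 95% interval -1.04 to -0.54, limma adjusted p = 0.0369). The call held without Petri control 1 or without microsystem control 1, microsystem control 3 or microsystem treated 3, and when both microsystem arrays numbered 3 were left out (-0.87, adjusted p = 0.0224). It was lost without any 1 of the other 8 arrays, with adjusted p between 0.0878 and 0.167. Among 19 other heat shock protein genes tested, none passed the difference, 1 rose in the microsystem and none in Petri dishes, and 2 had an unadjusted p of the difference under 0.05 (limma). Of all genes, 6.39% rose in the microsystem, 8.38% rose in Petri dishes and 7.35% had such an unadjusted p. These counts are therefore not read as a trait of heat shock genes.

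AGTR1 encodes the angiotensin II type 1 receptor, a G protein-coupled receptor that liver cells carry. It was the 1 gene past the threshold with a positive difference. Its log2 level was 6.80, 6.97 and 6.87 in Petri controls and 6.12, 6.09 and 6.34 in Petri treated cells. Microsystem controls had 5.60, 5.55 and 5.40 and microsystem treated cells 5.67, 5.62 and 5.70. All 6 microsystem arrays lay below all 6 Petri arrays, and the Petri treated arrays lay between the Petri controls and the microsystem. Treated arrays lay below controls in Petri dishes and just above them in the microsystem, without overlap in either. Such opposite non-overlap occurred for 0.333% of genes. AGTR1 fell 1.62-fold in Petri dishes (-0.70 ± 0.09, adjusted p = 0.000372), and its effect in the microsystem was 0.15 ± 0.09 (adjusted p = 0.305). The difference was 0.84 ± 0.12 (SE, n = 3 per group, 95% interval 0.58 to 1.11, limma adjusted p = 0.0369). Without both microsystem arrays numbered 3 it was 0.77 and the call was lost (adjusted p = 0.0721). The call held without Petri control 1, Petri treated 3, microsystem control 1 or microsystem control 3. It was lost without any 1 of the other 8 arrays, with adjusted p between 0.0627 and 0.167.

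**Figure D1:**
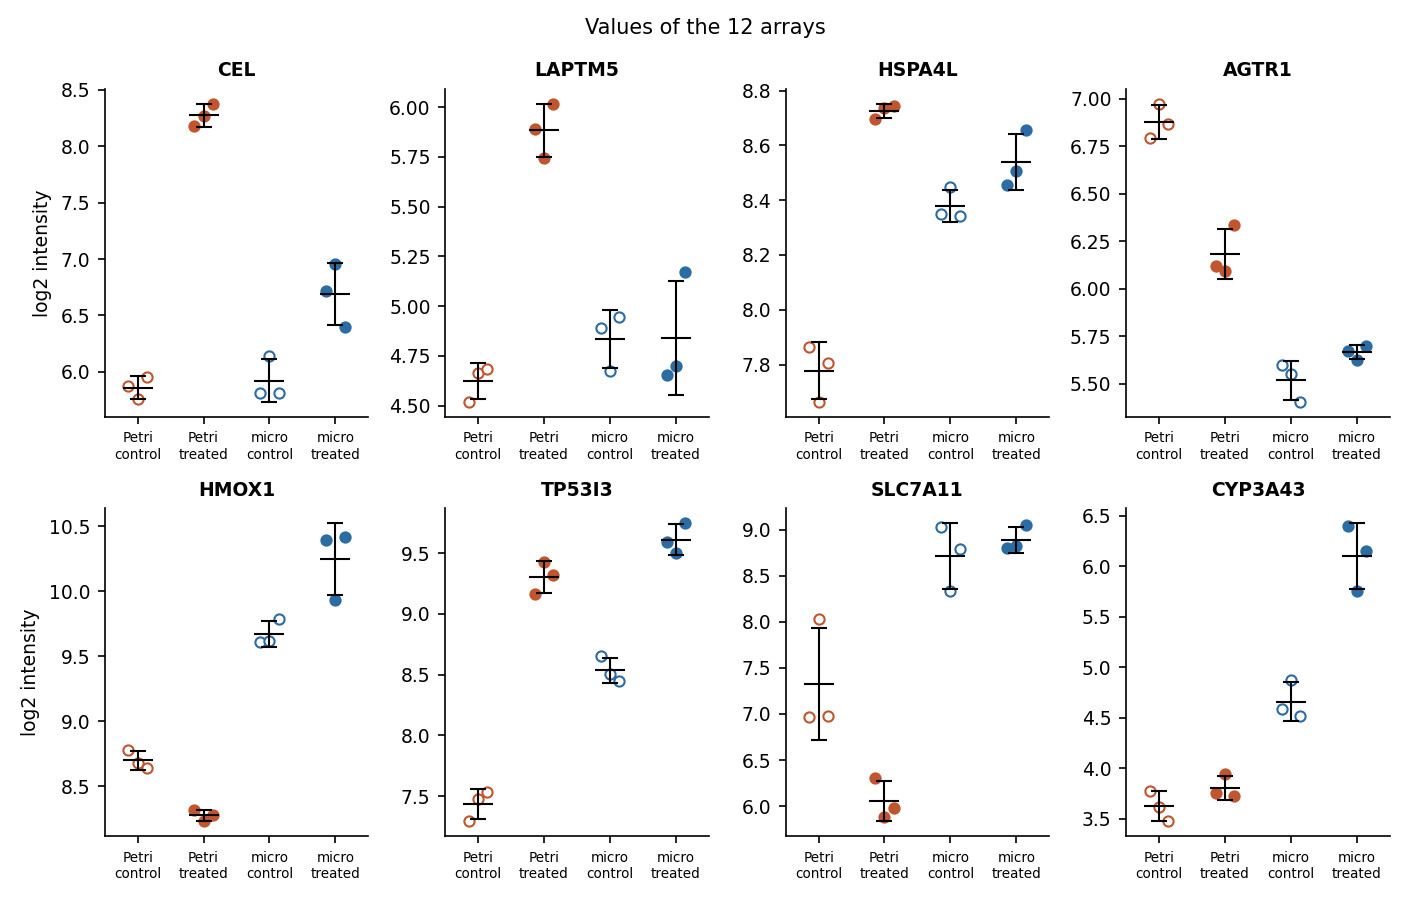
Log2 intensity of 8 genes on each of the 12 arrays, with Petri arrays in orange and microsystem arrays (micro) in blue. Open points are controls, filled points are treated, and the black bars are the group mean and SD of 3 arrays. CEL, LAPTM5 and HSPA4L rose more in Petri dishes and AGTR1 was lower there after treatment, while CYP3A43 stood at 5.76 to 6.40 in microsystem treated cells and at or below 4.88 elsewhere.

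The number of genes past the threshold of the difference moved with the array left out. A total of 12 genes passed without microsystem control 1 and 13 without microsystem control 3. It was 1 without microsystem control 2, microsystem treated 1, Petri control 2, Petri control 3 or Petri treated 2, and 2 without Petri treated 1 or Petri treated 3. Without both microsystem arrays numbered 3 it was 11, among them CEL, LAPTM5 and HSPA4L.

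HMOX1 encodes the inducible heme oxygenase and is a standard gene of oxidative stress. Among genes past the threshold of the treatment test in both cultures, it was the 1 that fell in 1 culture and rose in the other. Its log2 level was 8.78, 8.68 and 8.64 in Petri controls and 8.32, 8.23 and 8.28 in Petri treated cells. The microsystem levels were 9.61, 9.62 and 9.79 in controls and 10.40, 9.93 and 10.42 in treated cells. The order of the groups, from low to high, was Petri treated, Petri control, microsystem control and microsystem treated, with no overlap between neighbours. HMOX1 fell 1.34-fold in Petri dishes (-0.43 ± 0.12, adjusted p = 0.033) and rose 1.5-fold in the microsystem (0.58 ± 0.12, adjusted p = 0.0086). The difference of 1.01 ± 0.16 (SE, n = 3 per group, 95% interval 0.65 to 1.36) missed the threshold (limma adjusted p = 0.0565). It passed with array weights (adjusted p = 0.011), an intensity trend (0.0408), quantile normalization (0.0328), a replicate block (0.038), a block within each culture (0.0212), without microsystem control 3 (0.0422) and without microsystem treated 2 (0.00233), and over the single arrays left out its adjusted p reached 0.184. Without both microsystem arrays numbered 3 it was 0.98 (adjusted p = 0.0721).

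Outside these genes the effects mostly ran the same way in both cultures. The Petri and microsystem effects share no array. Of 552 genes past the threshold in both cultures, 551 had the same sign, 483 rising and 68 falling, and HMOX1 was the exception. Of 1459 genes past the threshold in exactly 1 culture, 1323 had the same sign in the other and 136 the opposite sign. The 1106 genes that rose in Petri dishes had a median log2 effect of 0.48 there and 0.32 in the microsystem, with the same sign for 95.8%. The 261 that fell in Petri dishes had medians of -0.38 and -0.22, with the same sign for 88.5%. Chosen in the microsystem, the 843 that rose had a median of 0.49 there and 0.40 in Petri dishes, with the same sign for 96.3%, and the 353 that fell had -0.39 and -0.19, with the same sign for 91.2%. The choice favours larger values in the culture where the genes were chosen. Across the 13199 genes, which are not independent replicates, the effects correlated with Pearson's r = 0.661 and Spearman's rho = 0.634. Non-overlapping groups occurred for 34.5% of genes in Petri dishes and 27.6% in the microsystem. They occurred in both cultures with the same direction for 13.5% and with opposite directions for 0.333%, which is 44 genes.

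The precision of the difference sets how alike the responses can be called. Its median SE was 0.143, against 0.101 for the Petri effect, and the median 95% interval reached 0.308 to each side on the log2 scale. For 10470 genes (79.3%) the interval stayed within a 1.5-fold difference between cultures, and for 12843 (97.3%) within a 2-fold difference. Of the 483 genes that rose in both cultures, 362 had an interval within 1.5-fold and 469 within 2-fold. Of the 68 that fell in both, these numbers were 61 and 68.

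**Figure D2:**
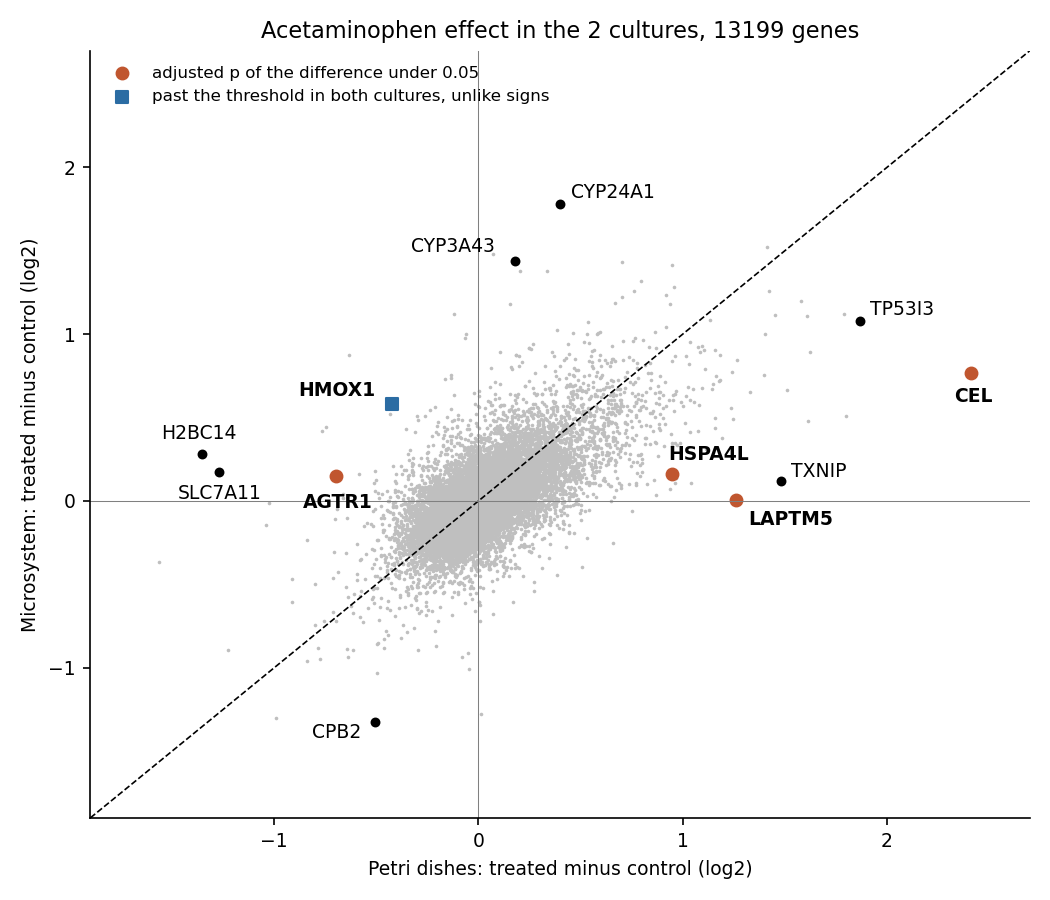
Acetaminophen effect (treated minus control, log2) in Petri dishes on the horizontal axis and in the microsystem on the vertical axis, 1 point per gene for 13199 genes, with the dashed line marking equal effects. CEL, LAPTM5, HSPA4L and AGTR1 (orange) passed the test of the difference, HMOX1 (blue square) passed the treatment test in both cultures with unlike signs, and the black points did not pass the test of the difference.

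Next in order of p after the 4 called genes were PSTPIP2 and DHRS2, which lie outside the rule for named genes and were chosen after their values were seen. PSTPIP2, an adaptor of the actin cytoskeleton, had means of 4.22 and 6.02 in Petri controls and treated cells and 3.73 and 4.24 in the microsystem. Its effects were 1.80 in Petri dishes and 0.51 in the microsystem, with a difference of -1.29 ± 0.20 (limma adjusted p = 0.0515). The 9 arrays outside the Petri treated group lay below the 40th percentile of their arrays (4.80 to 4.90), so PSTPIP2 was kept through the group where it was high and its effect sizes are uncertain. For that reason no rise in the microsystem is read from it, and its p-values, here and below, are not taken as support for a difference. DHRS2, a short-chain dehydrogenase/reductase, rose in Petri dishes (0.66, adjusted p = 0.00137) and had an effect of -0.25 in the microsystem (adjusted p = 0.142), with a difference of -0.91 ± 0.14 (adjusted p = 0.0515). DHRS2 levels were 9.76 and 10.43 in Petri dishes and 11.12 and 10.87 in the microsystem, so the cultures lay closer together after treatment. Without both microsystem arrays numbered 3 the adjusted p was 0.0212 for each of the pair. Both also passed without microsystem control 3 or microsystem treated 3, and PSTPIP2 without Petri treated 1, with adjusted p down to 0.0184 for PSTPIP2 and 0.0281 for DHRS2.

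A total of 36 lists of genes by pathway or function, with 777 of their 946 genes tested, were read for the same difference. None of the 777 passed (limma), and 106 (13.6%) had an unadjusted p under 0.05, against 7.35% of all genes tested. The lists and their members were chosen with earlier results of these data known, which can by itself raise the share. No conclusion is therefore drawn from its excess over that of all genes. Over all genes the median effect was 0.01 in Petri dishes and -0.01 in the microsystem, the median difference was -0.03, and 56.3% of differences were below 0. The most negative median difference belonged to the p53 targets and the most positive to cholesterol synthesis. For the counts in the lists below, the shares over all genes were 8.38% rising and 1.98% falling in Petri dishes. In the microsystem they were 6.39% and 2.67%. An unadjusted p of the difference under 0.05 (limma) occurred for 2.82% with the higher and 4.53% with the lower effect in the microsystem.

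**Figure D3:**
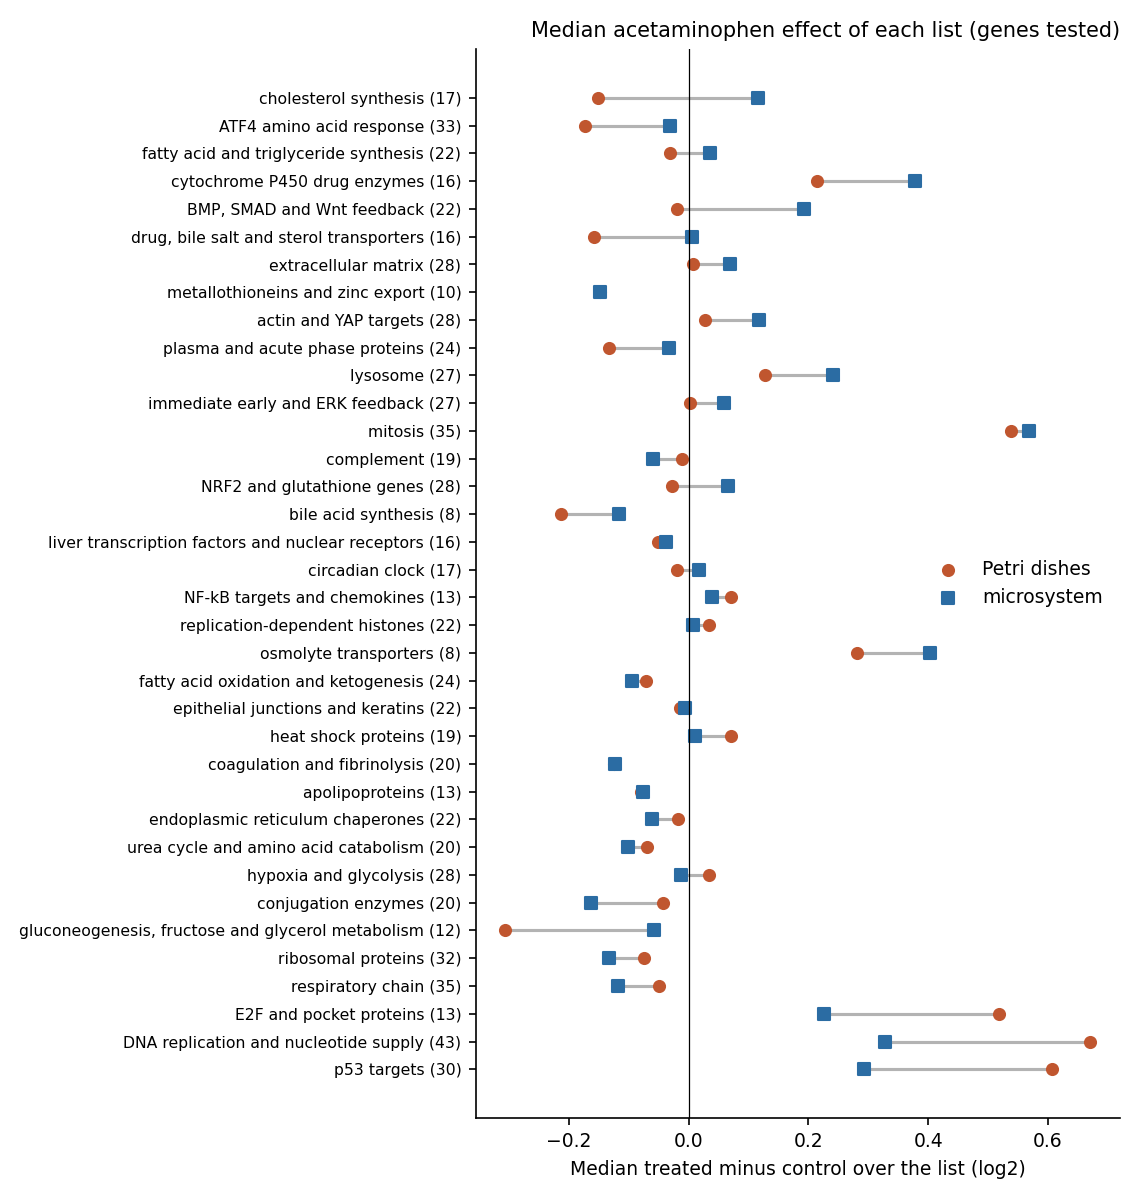
Median acetaminophen effect (treated minus control, log2) over the tested genes of each of 36 lists, in Petri dishes (orange circles) and in the microsystem (blue squares), with the number of genes in parentheses. A line joins the medians of a list, and lists are ordered by the median difference over genes from cholesterol synthesis (0.35) to p53 targets (-0.31).

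p53 is a transcription factor that responds to DNA damage and other stress by inducing genes of growth arrest, DNA repair and cell death. Of 30 p53 targets tested, 23 rose in Petri dishes and 13 in the microsystem, and none fell in either. The median effect was 0.61 in Petri dishes and 0.29 in the microsystem. The difference was below 0 for 26 of 30 targets, with a median of -0.31, and of -0.30 without both microsystem arrays numbered 3. No target passed the difference, and 15 had an unadjusted p under 0.05, all 15 with the smaller effect in the microsystem. The list median of the level was 7.90 in Petri controls and 8.70 in Petri treated cells, and 8.03 and 8.33 in the microsystem.

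TP53I3, a quinone oxidoreductase induced by p53, had the smallest p of the list. Its log2 level was 7.29, 7.48 and 7.54 in Petri controls and 9.16, 9.43 and 9.32 in Petri treated cells. It was 8.65, 8.51 and 8.45 in microsystem controls and 9.59, 9.50 and 9.75 in microsystem treated cells. Treated cells lay above controls without overlap in both cultures, and the microsystem controls lay above the Petri controls. The effects were 1.87 ± 0.10 and 1.08 ± 0.10, and the difference of -0.79 ± 0.14 (95% interval -1.09 to -0.49) did not pass (limma adjusted p = 0.0776). DDB2, a damage recognition protein of nucleotide excision repair, rose in both cultures (1.18 and 0.73, difference -0.46, adjusted p = 0.262). TIGAR, a regulator of glycolysis, rose in Petri dishes (0.91, adjusted p = 0.000143), and its microsystem effect was 0.33 (adjusted p = 0.0556). PHLDA3, an inhibitor of AKT, rose in Petri dishes (0.80, adjusted p = 0.00179) with a microsystem effect of 0.17 (adjusted p = 0.424). FAS, a death receptor, rose in Petri dishes (0.84, adjusted p = 0.000309) with a microsystem effect of 0.34 (adjusted p = 0.0551). CDKN1A, the p21 inhibitor of cyclin-dependent kinases, rose in both cultures by 0.67 and 0.51, and its difference was -0.16 ± 0.15 (adjusted p = 0.87).

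Genes of DNA replication and nucleotide supply copy the genome ahead of division, and their median difference was negative, as for the p53 targets. Of 43 replication genes tested, 31 rose in Petri dishes and 12 in the microsystem, with median effects of 0.67 and 0.33. The difference was below 0 for 41 of 43, with a median of -0.29, none passed, and 9 had an unadjusted p under 0.05. The median was -0.48 without microsystem control 1 and -0.22 without both microsystem arrays numbered 3. The list median of the level was 7.40 and 8.26 in Petri controls and treated cells, and 7.90 and 8.36 in the microsystem. PCNA, the sliding clamp of replication, rose in both cultures (0.88 and 0.44, difference -0.45 ± 0.16, adjusted p = 0.533). POLE2, a subunit of DNA polymerase epsilon, rose in Petri dishes (0.77, adjusted p = 0.00646), with a microsystem effect of 0.10 and a difference of -0.67 ± 0.22 (adjusted p = 0.445). E2F7, a repressor among the E2F factors and itself a p53 target, rose in both cultures (1.79 and 1.12, difference -0.67 ± 0.14, adjusted p = 0.175), and its difference passed without microsystem control 1 (0.047).

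Of 35 mitosis genes tested, 17 rose in Petri dishes and 22 in the microsystem, with median effects of 0.54 and 0.57. The median difference was 0.06, and none had even an unadjusted p under 0.05 (limma). Its sign depended on single arrays, since it was -0.13 without microsystem control 1, -0.04 without microsystem treated 3 and 0.25 without microsystem control 3, and with array weights it was -0.02. MKI67, a marker of cycling cells, rose by 0.57 and 0.49, with a difference of -0.08 (95% interval -0.42 to 0.26, adjusted p = 0.94). Its levels were 8.81, 8.73 and 8.71 in Petri controls and 8.56, 9.003 and 9.01 in microsystem controls, where replicate 1 was the low array.

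Cholesterol is made from acetyl-CoA through mevalonate and squalene, and its enzymes are induced together by the factor SREBP2 when sterols are low. The promoters of MSMO1, HMGCS1, CYP51A1 and DHCR7 are shown because these 4 genes of the pathway fell in Petri dishes. Each sequence is the 250 bases before the gene's start in RefSeq on GRCh38.p14, written 5′ to 3′ on the gene's strand, and capitals mark CCAAT on either strand (ATTGG where it lies on the other strand), the motif of the factor NF-Y. MSMO1 is on the plus strand at chr4:165327419-165327668, HMGCS1 on the minus strand at chr5:43313413-43313662, CYP51A1 on the minus strand at chr7:92134478-92134727 and DHCR7 on the minus strand at chr11:71448394-71448643.
MSMO1: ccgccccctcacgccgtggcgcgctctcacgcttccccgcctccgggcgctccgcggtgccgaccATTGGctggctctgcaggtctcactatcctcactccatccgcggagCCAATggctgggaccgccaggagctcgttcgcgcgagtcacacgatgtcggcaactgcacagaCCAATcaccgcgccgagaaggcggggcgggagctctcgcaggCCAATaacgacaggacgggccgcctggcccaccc
HMGCS1: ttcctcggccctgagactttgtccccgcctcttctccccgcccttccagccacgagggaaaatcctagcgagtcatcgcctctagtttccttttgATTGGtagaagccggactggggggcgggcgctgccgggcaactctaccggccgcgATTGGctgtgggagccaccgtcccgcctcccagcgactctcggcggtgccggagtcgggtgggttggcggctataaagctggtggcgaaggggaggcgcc
CYP51A1: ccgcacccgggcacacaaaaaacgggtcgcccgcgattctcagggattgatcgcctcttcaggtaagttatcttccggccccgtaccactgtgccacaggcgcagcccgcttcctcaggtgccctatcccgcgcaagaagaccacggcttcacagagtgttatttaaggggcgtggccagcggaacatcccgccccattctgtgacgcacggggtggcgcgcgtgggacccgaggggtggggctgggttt
DHCR7: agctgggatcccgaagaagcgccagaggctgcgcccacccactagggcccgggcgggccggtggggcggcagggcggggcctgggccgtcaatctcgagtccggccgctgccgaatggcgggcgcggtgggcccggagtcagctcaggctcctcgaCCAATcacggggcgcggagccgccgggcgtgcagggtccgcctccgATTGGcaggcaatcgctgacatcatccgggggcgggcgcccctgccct
CCAAT occurred 4 times in the MSMO1 window, 2 times in those of HMGCS1 and DHCR7 and 0 times in that of CYP51A1. HMGCS1 and DHCR7 have 2 starts each in the table, and the window with more CCAAT is shown. Of 17 cholesterol synthesis genes tested, 16 had a promoter in the table, and 14 of these held CCAAT in the 250 bases. The share was 37.0% of the 27305 genes of the table, whether tested on the arrays or not. It was 26 of 30 for mitosis genes and 22 of 37 for replication genes, so the motif is frequent in other lists too. Other motifs were searched for as well, and CCAAT is shown as the most frequent in this list. ACGTG came next, in 3 of 16, against 21.74% of the genes of the table. A match describes these letters only.

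Of the 17 cholesterol synthesis genes tested, 4 fell in Petri dishes (MSMO1, HMGCS1, CYP51A1 and DHCR7) and none rose, and in the microsystem none passed in either direction (limma). The median effect was -0.15 in Petri dishes and 0.12 in the microsystem. The difference was above 0 for 15 of 17 genes, with a median of 0.35, and of 0.38 without both microsystem arrays numbered 3. None passed the difference, and 8 had an unadjusted p under 0.05, all 8 with the higher effect in the microsystem.

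MSMO1, a sterol C4 demethylating oxidase, had log2 levels of 9.34, 9.22 and 9.12 in Petri controls and 8.73, 8.79 and 8.66 in Petri treated cells. Microsystem controls had 10.27, 10.10 and 10.15 and microsystem treated cells 10.29, 10.31 and 10.30. Petri treated cells lay below their controls without overlap, and the microsystem treated arrays lay just above theirs. MSMO1 fell by 0.50 in Petri dishes (adjusted p = 0.00172) with an effect of 0.12 in the microsystem (adjusted p = 0.35), and its difference was 0.63 ± 0.11 (95% interval 0.38 to 0.87, adjusted p = 0.0776). HMGCS1, which makes HMG-CoA ahead of the mevalonate step, fell by 0.47 in Petri dishes (adjusted p = 0.0154), and its microsystem effect was 0.04 (difference 0.51 ± 0.16, adjusted p = 0.421). DHCR7, the enzyme of the last step, fell by 0.32 in Petri dishes (adjusted p = 0.0368), and its microsystem effect was 0.26 (adjusted p = 0.0894, difference 0.58 ± 0.13, adjusted p = 0.179). CYP51A1, the lanosterol demethylase, fell by 0.33 in Petri dishes (adjusted p = 0.0146), with a microsystem effect of 0.10 (difference 0.44 ± 0.11, adjusted p = 0.285). SREBF2, the gene of SREBP2 itself, had effects of -0.01 and -0.00.

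**Figure D4:**
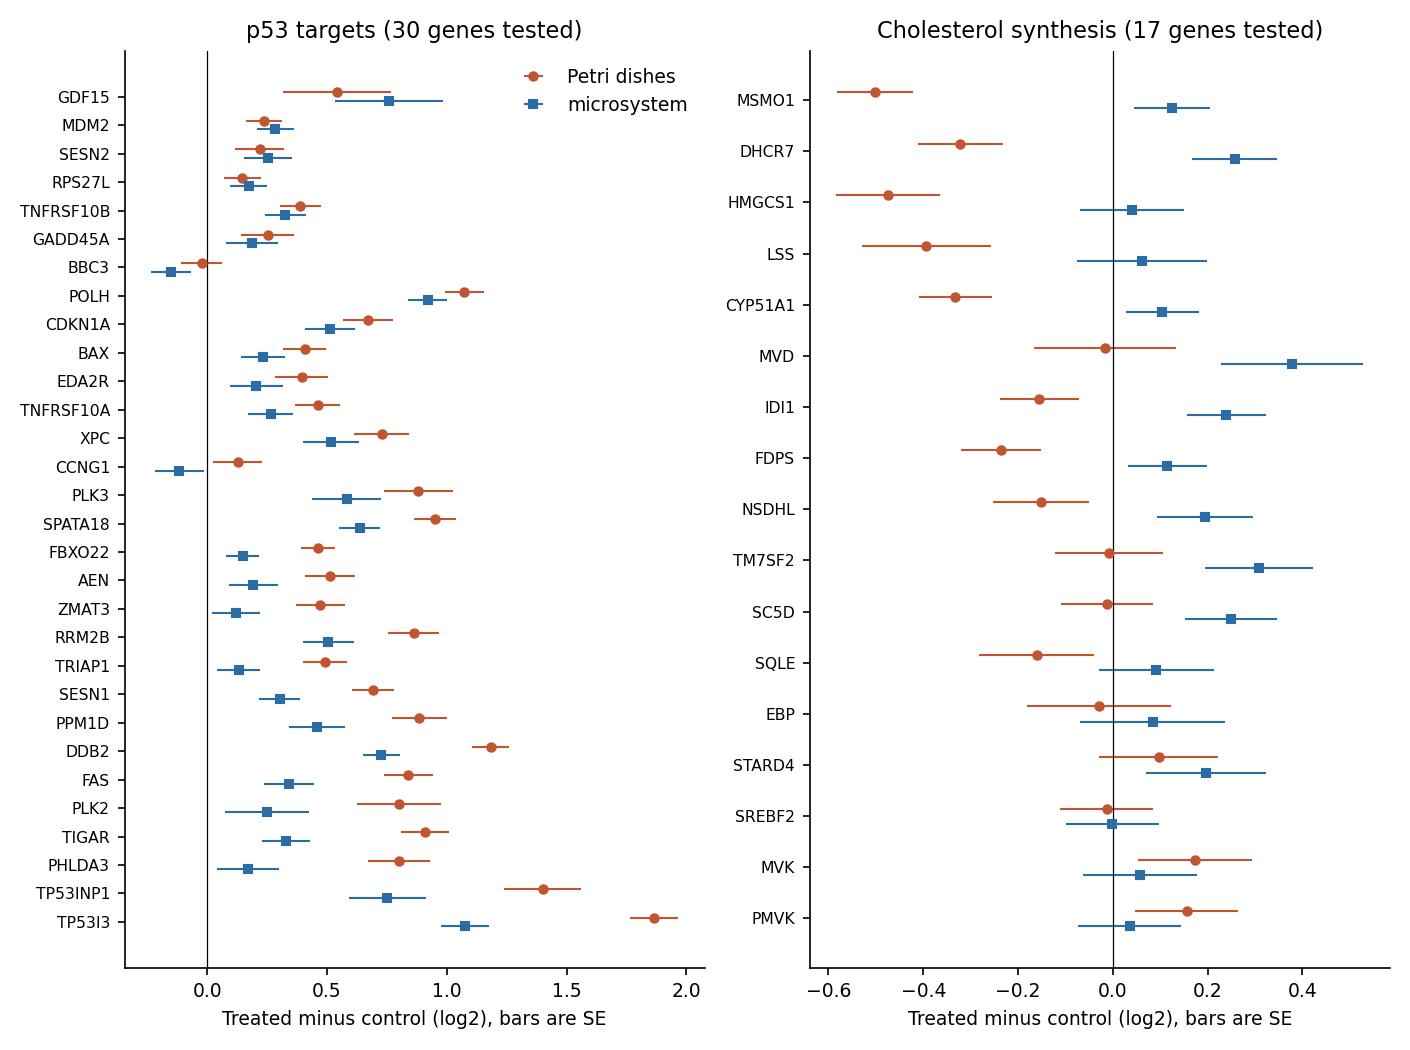
Acetaminophen effect (treated minus control, log2, bars are SE) of each tested p53 target (left) and cholesterol synthesis gene (right) in Petri dishes (orange circles) and in the microsystem (blue squares). For 26 of 30 p53 targets the microsystem effect was lower, and for 15 of 17 cholesterol synthesis genes it was higher.

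Among 16 cytochrome P450 genes tested, 3 rose and 1 fell in Petri dishes and 7 rose in the microsystem. The shares over all genes were 8.38%, 1.98% and 6.39%. The 7 include CYP3A43, which is uncertain for the reasons given below, so the count is uncertain too. The median effect was 0.21 and 0.38 and the median difference 0.15, or 0.25 without both microsystem arrays numbered 3. None passed the difference, and 5 had an unadjusted p under 0.05 (limma), against 7.35% of all genes. CYP3A43, a minor CYP3A enzyme, had log2 levels of 3.77, 3.62 and 3.48 in Petri controls and 3.75, 3.94 and 3.72 in Petri treated cells. Microsystem controls had 4.58, 4.88 and 4.52 and microsystem treated cells 6.40, 5.76 and 6.15. The 3 microsystem treated arrays stood above the other 9. CYP3A43 rose in the microsystem (1.44, adjusted p = 0.000175) with a Petri effect of 0.18 (adjusted p = 0.469). The difference was 1.26 ± 0.21 (95% interval 0.81 to 1.71, adjusted p = 0.059). It was 1.17 when both microsystem arrays numbered 3 were left out (adjusted p = 0.135). Without microsystem treated 2 the adjusted p was 0.012. All 6 Petri arrays and the microsystem controls 1 and 3 lay below the 40th percentile of their arrays (4.80 to 4.90), so CYP3A43 was kept mainly through the group where it was high. For that reason, and because CYP3A genes are near-identical in sequence, its effect sizes are uncertain.

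CYP3A4 and CYP2E1, which oxidise acetaminophen, did not pass the difference. CYP3A4, the main CYP3A enzyme of adult liver, had effects of 0.51 (adjusted p = 0.103) and 0.66 (adjusted p = 0.0433), with a difference of 0.15 (adjusted p = 0.931), and is uncertain for the same reasons as CYP3A43, with means of 2.89 and 3.39 in Petri controls and treated cells and 4.68 in microsystem controls. CYP2E1, the enzyme most tied to the quinone imine, fell by 0.29 in Petri dishes (adjusted p = 0.0378), and its microsystem effect was -0.02 (difference 0.27, adjusted p = 0.64). CYP2E1 means lay between 4.81 and 5.09, near the 40th percentile, so these sizes are uncertain too. CYP1A1, an enzyme induced through the aryl hydrocarbon receptor, rose by 0.70 in Petri dishes (adjusted p = 0.00527), and its microsystem effect was 0.10 (adjusted p = 0.681, difference -0.60 ± 0.19, adjusted p = 0.445). CYP1A1 means were 5.36 and 6.06 in Petri dishes and 11.21 and 11.31 in the microsystem. CYP24A1, the vitamin D 24-hydroxylase, rose by 1.78 in the microsystem (adjusted p = 0.0067) with a Petri effect of 0.40 (adjusted p = 0.48), and its difference of 1.38 ± 0.47 had a 95% interval from 0.36 to 2.40 (adjusted p = 0.508). Of 20 conjugation enzymes tested, 2 fell in Petri dishes and 1 rose in the microsystem, against shares of 1.98% and 6.39% over all genes. None passed the difference, 2 had an unadjusted p under 0.05 (7.35% of all genes did), and the median difference was -0.08.

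In the list of 28 NRF2 and glutathione genes tested, HMOX1 and SLC7A11 had the smallest p-values of the difference. The list medians were -0.03 in Petri dishes, 0.07 in the microsystem and 0.04 for the difference, with 4 members at an unadjusted p under 0.05 and none past the threshold (limma). SLC7A11, the cystine transporter that feeds glutathione synthesis, had log2 levels of 6.97, 8.03 and 6.98 in Petri controls and 6.30, 5.88 and 5.98 in Petri treated cells. In the microsystem it had 9.03, 8.33 and 8.79 in controls and 8.80, 8.82 and 9.05 in treated cells. Petri treated cells were lowest without overlap, Petri control 2 stood about 1 above the other Petri controls, and the microsystem groups overlapped. SLC7A11 fell by 1.27 in Petri dishes (adjusted p = 0.00539) with a microsystem effect of 0.17 (adjusted p = 0.69), and its difference was 1.44 ± 0.35 (95% interval 0.70 to 2.19, adjusted p = 0.262). GCLM, the regulatory subunit of the enzyme that starts glutathione synthesis, had effects of 0.21 and 0.37 and a difference of 0.16 (adjusted p = 0.887).

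ATF4 is the factor of the amino acid and unfolded protein response. Of 33 of its targets tested, 3 fell in Petri dishes and 1 in the microsystem, and the median effects were -0.17 and -0.03. The shares over all genes were 1.98% and 2.67%, and such small counts are not read as a response of the list. The 3 include SLC7A11, which is also in the NRF2 list above, so the 2 lists are not separate for this gene. The median difference was 0.20, and 0.06 without Petri control 2, 0.09 without Petri treated 1 or 0.10 without microsystem treated 3. INHBE, an inhibin beta chain made by liver, fell by 1.04 in Petri dishes (adjusted p = 0.00429) with a microsystem effect of -0.14 (adjusted p = 0.675, difference 0.90 ± 0.27, adjusted p = 0.421). Asparagine synthetase, ASNS, had effects of -0.69 (adjusted p = 0.0725) and -0.05 (adjusted p = 0.912).

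Genes of AP-1, BMP and iron signalling were read next, and none passed the difference. JUNB, an AP-1 subunit of the immediate early class, had log2 levels of 8.69, 8.96 and 9.02 in Petri controls and 8.56, 8.76 and 8.87 in Petri treated cells. The microsystem levels were 8.70, 8.84 and 8.81 in controls and 9.51, 9.62 and 9.41 in treated cells. The 3 microsystem treated arrays stood above the other 9, which overlapped. JUNB rose in the microsystem (0.73, adjusted p = 0.0014) with a Petri effect of -0.16 (adjusted p = 0.355), and its difference was 0.89 ± 0.15 (95% interval 0.57 to 1.21, adjusted p = 0.059). The difference passed with an intensity trend, quantile normalization, array weights or either replicate block, and without Petri control 1 (adjusted p = 0.0453). Of 27 immediate early and ERK feedback genes tested, 2 rose and 1 fell in Petri dishes and 3 rose in the microsystem. The shares over all genes were 8.38%, 1.98% and 6.39%, so these counts are not read as a response of the list.

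BMP signals act through SMAD factors, which in liver induce the iron hormone hepcidin and the feedback genes SMAD7 and ID. Of 22 BMP, SMAD and Wnt feedback genes tested, 5 rose in the microsystem, and 1 rose and 1 fell in Petri dishes. The shares over all genes were 6.39%, 8.38% and 1.98%. The median difference was 0.15, and 6 genes had an unadjusted p under 0.05, all 6 with the higher effect in the microsystem, against 2.82% of all genes. SMAD7, an inhibitory SMAD, rose by 0.57 in the microsystem (adjusted p = 0.00592) with a Petri effect of -0.00 (difference 0.57 ± 0.15, adjusted p = 0.315). ID2, an inhibitor of DNA binding, rose by 0.43 (adjusted p = 0.0177) with a Petri effect of -0.06 (difference 0.49, adjusted p = 0.393). FST, follistatin, which binds activins and some BMPs, rose by 1.12 (adjusted p = 0.00218) with a Petri effect of -0.12 (difference 1.24 ± 0.24, adjusted p = 0.107). Without microsystem control 1 the FST call passed, at 0.047. HAMP, the gene of hepcidin, had log2 levels of 5.69, 5.58 and 5.62 in microsystem controls and 6.67, 6.62 and 6.53 in microsystem treated cells. In Petri dishes it had 7.25, 8.15 and 7.87 in controls and 7.63, 7.81 and 7.63 in treated cells. The Petri groups overlapped, and the microsystem groups did not. HAMP rose by 0.98 in the microsystem (adjusted p = 0.00376) with a Petri effect of -0.07 (difference 1.04 ± 0.23, 95% interval 0.54 to 1.55, adjusted p = 0.199). It passed without Petri control 1, at 0.00725.

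TXNIP and ARRDC4, arrestin-like genes that are induced by glucose and limit its uptake, rose in Petri dishes. TXNIP had log2 levels of 9.44, 7.998 and 8.84 in Petri controls and 10.60, 10.04 and 10.08 in Petri treated cells. In the microsystem it had 11.03, 10.998 and 10.64 in controls and 10.80, 11.18 and 11.04 in treated cells. Petri controls were the low group, spread over more than 1 on the log2 scale, and the microsystem groups overlapped. TXNIP rose by 1.48 in Petri dishes (adjusted p = 0.00429) with a microsystem effect of 0.12 (adjusted p = 0.81), and its difference was -1.36 ± 0.39 (95% interval -2.19 to -0.53, adjusted p = 0.386). ARRDC4 rose by 1.08 (adjusted p = 0.000345) with a microsystem effect of 0.42 (adjusted p = 0.0664, difference -0.66 ± 0.19, adjusted p = 0.394).

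None of the genes of secreted hepatocyte products passed the difference. ALB, serum albumin, had effects of 0.01 and -0.04 (difference -0.05, 95% interval -0.29 to 0.20, adjusted p = 0.951), and AFP, the fetal albumin relative, had -0.00 and -0.18 (difference -0.18, adjusted p = 0.886). CPB2, a carboxypeptidase that slows fibrinolysis, fell by 1.32 in the microsystem (adjusted p = 0.000778) with a Petri effect of -0.51 (adjusted p = 0.0796). Its difference was -0.82 ± 0.24 (95% interval -1.34 to -0.29, adjusted p = 0.421). CPB2 levels were 9.31, 8.95 and 9.06 in Petri controls and 8.71, 8.57 and 8.50 in Petri treated cells, and 8.73, 9.38 and 8.70 against 7.81, 7.71 and 7.33 in the microsystem. Treated arrays lay below controls in both cultures. AHSG, fetuin-A, fell by 0.55 in the microsystem (adjusted p = 0.000778) with a Petri effect of -0.17 (adjusted p = 0.154, difference -0.38 ± 0.10, adjusted p = 0.339). Of 24 plasma and acute phase protein genes tested, 4 fell in Petri dishes, and 3 fell and 1 rose in the microsystem, with a median difference of 0.08. The shares over all genes were 1.98%, 2.67% and 6.39%.

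Other genes with larger estimates did not pass the difference over all 12 arrays. ACTA2, smooth muscle actin, rose in both cultures by 1.24 and 0.56 (difference -0.68 ± 0.12, adjusted p = 0.0776), and passed without microsystem control 1 (0.047). LOXL4, a lysyl oxidase-like enzyme of the matrix, rose by 1.18 in the microsystem with a Petri effect of 0.15 (difference 1.03 ± 0.26, adjusted p = 0.285). H2BC14, a replication-dependent histone gene of a near-identical family and so uncertain, fell by 1.35 in Petri dishes with a microsystem effect of 0.28 (difference 1.64 ± 0.41, adjusted p = 0.295). Its log2 levels in microsystem controls were 8.32, 9.12 and 9.85, a spread of more than 1, so the sizes are uncertain for that reason too. The H2BC14 difference passed without both microsystem arrays numbered 3 (1.78, adjusted p = 0.04) and without microsystem control 3 alone (0.0422). Among 32 ribosomal protein, 17 circadian clock, 8 bile acid synthesis and 20 urea cycle and amino acid catabolism genes tested, none had an unadjusted p of the difference under 0.05 (limma).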

How the data were processed

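RNA of 12 HepG2C3A samples was measured on Affymetrix arrays. The authors deposited 1 log2 intensity for each probe set, computed by RMA with Affymetrix Expression Console according to the labels' list of tools (per the submitters' processing notes). Program versions and the genome build: not given in the sources used here. RMA averages the probes of a set and equalises array distributions, so a shift common to all genes cannot be seen. The values were used without further normalization.

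Of 32321 probe sets, 19158 had 1 gene symbol in the platform annotation, 1388 had several and 11775 had none here. Those with 1 symbol covered 18404 genes. Several probe sets existed for 637 genes, and the one with the highest mean over the 12 arrays was used. Genes were kept when at least 3 arrays exceeded the 40th percentile of all probe sets (13199 genes). A model with 1 mean per group was fitted in limma 3.58.1 (R 4.3.3, data.table, version 1.17.8), with 8 residual and 5.35 prior degrees of freedom. Adjusted p-values are Benjamini-Hochberg values over the 13199 genes, two-sided, with a threshold of 0.05, and SE and 95% intervals are those of the moderated fit. Only 3 arrays per group limit the precision. The procedure was tested on simulated data. Python 3.11.15, pandas 2.3.3 and matplotlib 3.10.9 were used for summaries and figures, and promoters are those of RefSeq on GRCh38.p14.

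Named genes were, by rule, the 12 largest differences in each direction among genes past the threshold, up to 6 members past the threshold per list or else the member with the smallest p, and 14 fixed genes, of which the text prints some. Other list members are printed as examples and were chosen after their values were seen. Members, lists and rules were chosen with earlier results of these data known. Near-identical gene families are called uncertain.

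Same-numbered arrays deviated together in Petri dishes (r of deviations from the group mean 0.477, 0.189 and 0.307) and, in the microsystem, clearly for number 3 alone (0.107, 0.071 and 0.604). The printed effects come from the fit without a block. The count with a block is given beside the treatment effects, and blocked results of the difference are among the alternatives. The labels do not explain the numbers. The alternatives were a replicate block (also within each culture), quantile normalization, equal array medians, array weights, an intensity trend, each probe set by itself, the mean of probe sets, no filter or a filter at the 60th percentile, an adjusted p under 0.01, and leaving out each array or both microsystem arrays numbered 3. Testing all probe sets was added after the data were seen.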

Additional observations from a re-analysis of the deposited data

Results flagged for a closer look

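The difference between the cultures was itself past the threshold for 4 genes, and each is listed because of that test. The log2 microsystem effect minus Petri effect was -1.65 for CEL, -1.25 for LAPTM5, -0.79 for HSPA4L and 0.84 for AGTR1 (limma, adjusted p = 0.00762, 0.0369, 0.0369 and 0.0369). The treatment effect in Petri dishes passed for all 4 genes, and that in the microsystem for CEL. Groups of 3 arrays are too small for a test of single outlying arrays.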

How the results depend on the processing

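CEL, LAPTM5, HSPA4L and AGTR1 kept their direction under every alternative. With all 12 arrays, all 4 calls held under each alternative except the 60th percentile filter, which removed LAPTM5, an adjusted p under 0.01, which left CEL, and all probe sets tested together, which left none. Numbers lower and higher in the microsystem were 33 and 21 with array weights, 6 and 4 with an intensity trend, 14 and 10 with a replicate block within each culture, 11 and 7 with a replicate block, 9 and 2 without both microsystem arrays numbered 3, and 1 and 0 at an adjusted p under 0.01. Equal array medians gave 5 lower, quantile normalization 3 higher, and all 20226 probe sets past the filter gave 0 and 0 (1241 at an unadjusted p under 0.05, smallest adjusted p 0.0617). Leaving out 1 array gave 1 to 9 lower and 0 to 5 higher. Replicate numbers were not taken as pairs for the difference. Of the genes described above or below that missed the threshold, HMOX1, JUNB, PSTPIP2, DHRS2, DRAM1, NOTCH1 and IGFBP1 passed with both kinds of block. TP53I3 and H2BC14 passed with the block within each culture and CYP3A43 with the overall block. Genes not described here passed too, among them COMP, INPP5D, PARD6G and TIMP4 with both kinds of block.

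Genes past the threshold in Petri dishes were 3602 with array weights, 2180 with the block within each culture and 560 at an adjusted p under 0.01 (701 to 1520 without 1 array). In the microsystem they were 2109 with that block, 677 without the arrays numbered 3 and 342 at 0.01 (460 to 1440 without 1 array). Genes with effects past the threshold in opposite directions were 6 with array weights, 1 with the trend, 1 with quantile normalization, 6 and 3 with the blocks (within culture, then overall) and 1 without the arrays numbered 3 (0 to 3 without 1 array). Genes with a larger effect in Petri dishes were 2 with equal medians, 8 with weights, 3 with the trend, 2 with quantile normalization and 3 and 2 with the blocks (1 to 3). Genes with an effect in Petri dishes alone were 27 with weights, 13 and 10 with the blocks, 7 without the arrays numbered 3 and 0 at 0.01 (0 to 8).

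The median microsystem effect of genes that rose in Petri dishes was 0.21 with weights, 0.34 with quantile normalization and 0.28 and 0.29 with the blocks (0.30 to 0.40 without 1 array), and of genes that fell -0.16 with weights (-0.31 to -0.19). The median Petri effect of genes that rose in the microsystem was 0.37 with weights, 0.37 with quantile normalization, 0.34 and 0.37 with the blocks and 0.48 without the arrays numbered 3 (0.35 to 0.51). For genes that fell there it was -0.17 with equal medians, -0.17 with weights, -0.21 with quantile normalization, -0.17 with the block within each culture and -0.21 without the arrays numbered 3 (-0.30 to -0.17). One named gene changed sign, LYVE1, from -0.27 to 0.23 without microsystem control 1 (-0.86 to 0.23 over the single arrays), and no value passed. The cause of these changes was not tested.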

Other observations

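IGFBP1, a secreted binder of insulin-like growth factors made by liver, lay outside the rule for named genes and was chosen after its values were seen. Its log2 level was 11.39, 11.57 and 11.49 in Petri controls and 10.51, 11.01 and 11.04 in Petri treated cells. In the microsystem it was 10.94, 10.39 and 11.16 in controls and 11.61, 11.48 and 12.04 in treated cells. Treated arrays lay below controls in Petri dishes and above them in the microsystem, without overlap in either. The effects were -0.63 (limma adjusted p = 0.0554) and 0.88 (adjusted p = 0.015), and the difference of 1.51 ± 0.28 did not pass (adjusted p = 0.0776). It passed without microsystem control 3 (0.0422).

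DRAM1, a lysosomal membrane protein induced by p53, and NOTCH1, a receptor of cell contact signalling, were chosen in the same way. DRAM1 rose by 0.94 in Petri dishes with a microsystem effect of 0.07 (difference -0.87 ± 0.15, adjusted p = 0.0776), and its difference passed without both microsystem arrays numbered 3 (-0.91, adjusted p = 0.0224) and without microsystem control 3 alone (0.0422). NOTCH1 rose by 1.04 with a microsystem effect of 0.11 (difference -0.93 ± 0.17, adjusted p = 0.0776). HSD17B11, a hydroxysteroid dehydrogenase of lipid droplets, rose by 0.44 in the microsystem with a Petri effect of -0.13 (difference 0.57 ± 0.10, adjusted p = 0.0776). Of 6523 probe sets past the filter with no symbol or several, none passed the difference (limma, smallest adjusted p 0.205), and 362 (5.55%) had an unadjusted p under 0.05.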
